A study of Canis lupus familiaris with 30 samples.

Results

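This account covers the genes of 3 ErbB receptors, *EGFR*, *ERBB3* and *ERBB4*, and of 7 of their ligands, *EGF*, *TGFA*, *AREG*, *EREG*, *BTC*, *HBEGF* and *NRG1*, in canine thyroid tumors. They were chosen by name as a receptor family with its ligands, and all 10 were found by symbol among the 30424 genes of the count table. RNA was sequenced from 30 frozen primary tumors of the thyroid gland of dogs, 1 library per tumor, from total RNA depleted of ribosomal RNA. All 30 tumors carry the same description in the sample labels, which give no treatment, no control tissue and no age, so the tumors form 1 group. The study's cohort held follicular and medullary carcinomas, but the labels do not give the type of each tumor, and it was not used here. Each tumor is a single library without a repeat, so values are given as the spread between tumors. In bulk tissue, fewer cells that use a gene and less RNA per cell cannot be told apart.

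ErbB receptors are tyrosine kinases of the cell surface that act in pairs. EGFR binds EGF, TGF-alpha and amphiregulin (the products of *EGF*, *TGFA* and *AREG*), while betacellulin (*BTC*), heparin-binding EGF (*HBEGF*) and epiregulin (*EREG*) bind both EGFR and ERBB4. Neuregulin 1 (*NRG1*) binds ERBB3 and ERBB4. ERBB3 has little kinase activity of its own and signals through its partner, often ERBB2, for which no ligand is known. The ligands are made as membrane proteins and released by proteases, and the paired receptors pass the signal to the ERK and PI3K pathways. EGF is a known growth signal of thyroid follicular cells in culture.

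The counts of a tumor summed to between 12288945 and 45148677 (median 25569678). A level here is log2(normalized count + 1), where counts were scaled by a size factor for each tumor, so that a difference of 1 is a doubling of the normalized count except near 0. Exon lengths were not used, so levels are compared between tumors and never between genes. Clustering on 759 variable genes, none of them a gene of this pathway, set 5 tumors apart from the other 25 (TC1020, TC1473, TC1601, TC1936 and TC2289). Their mean level over 6 C-cell markers was 11.04 to 14.97, against 1.34 to 8.67 in the other 25. The mean over 8 thyrocyte markers was 4.31 to 10.84 in the 5 and 3.75 to 15.57 in the 25. In TC2289, *CALCA*, which encodes calcitonin, the hormone of C cells, was at only 6.94. The lowest thyrocyte value belonged to TC1088, where thyroglobulin (*TG*) was at 3.70 and the TSH receptor (*TSHR*) at 1.00. TC1088 lay far from all others on the second principal component, at 81.6, and the next tumor, TC1241, was at 36.6. TC1088 was left out of the fits, following the methods of the cohort's differential expression. Tests were therefore run over the 24 remaining tumors, with TC1088 given beside them. The 5 tumors are not a labelled group, so each has its own value here and no test was made against the rest.

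*EGFR* was expressed in all 30 tumors, from 55 to 7597 counts. Over the 24 tumors its level was lowest at 6.12 in TC627, had a median of 8.56 and was highest at 10.49 in TC1241. Of the 5 tumors that stood apart, TC1473 was at 10.82, TC1601 at 11.17, TC1936 at 11.68 and TC1020 at 11.74, all above the highest of the 24. TC2289, the fifth, was at 9.34, inside the range of the 24. TC1088 had the highest *EGFR* of all, 12.89. The share of all genes that place these tumors above the 24 in this way was not counted, so the placing has no background beside it.

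*ERBB3* varied more among the 24 tumors than *EGFR* did, with an SD of 1.79 against 1.04 on the log2 scale. Of the genes that passed the count filter in these tumors, 92.6% had a smaller SD than *ERBB3* and 66.8% a smaller SD than *EGFR*. The level ran from 6.81 in TC1218 over a median of 8.35 to 11.80 in TC2288. TC538 held rank 8 of the 24 at 10.38 and TC67 rank 9 at 9.66. A gap of similar size lay lower down, between TC1213 (rank 11, 9.26) and TC627 (rank 12, 8.52), so the values set off no single high group. TC2288 was also the tumor with the highest mean level of the 3 parathyroid markers, 10.61, and the part of parathyroid tissue in its *ERBB3* was not tested. TC1088 was again high, at 11.47, rank 4 of all 30 tumors. The 5 tumors that stood apart did not stand apart in *ERBB3*: TC2289 had the lowest value of all 30, 6.44, TC1936 was at 8.28, TC1020 at 8.33, TC1473 at 8.34 and TC1601 at 10.12.

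*ERBB4* was near the limit of detection in most tumors. Of the 24, 5 had a count of 0, only 6 had 10 counts or more, and the highest level was 4.87 in TC2089, from 23 counts. A count of 0 allows up to 3 counts, which is a level of 1.51 to 2.29 in those 5 tumors (counting error only). The other 6 tumors were all above the 24. TC1020 was at 7.12 (143 counts), TC1088 at 8.63 (398 counts), TC1601 at 9.11 (641 counts), TC1473 at 9.58 (843 counts), TC2289 at 10.08 (842 counts) and TC1936 at 11.24 (2281 counts). The gap between the 24 tumors and these 6 was thus 4.87 to 7.12, and the 5 tumors apart were interleaved with TC1088. The share of all genes that separate these 6 tumors from the 24 was not counted, so this separation has no background beside it.

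None of the 10 genes placed all 5 tumors apart above, or all below, the other 25, since TC1088 or another tumor lay among them. Over the 18711 genes that passed the filter in 30 tumors, 1.8% lay entirely above and 0.331% entirely below. For *ERBB2*, the partner receptor, 4 of the 5 had the lowest levels of all (6.04 in TC1473, 6.29 in TC1020, 6.46 in TC2289 and 8.47 in TC1936), followed by TC1088 at 10.58, while the 24 lay between 11.65 and 14.97.

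**Figure D1:**
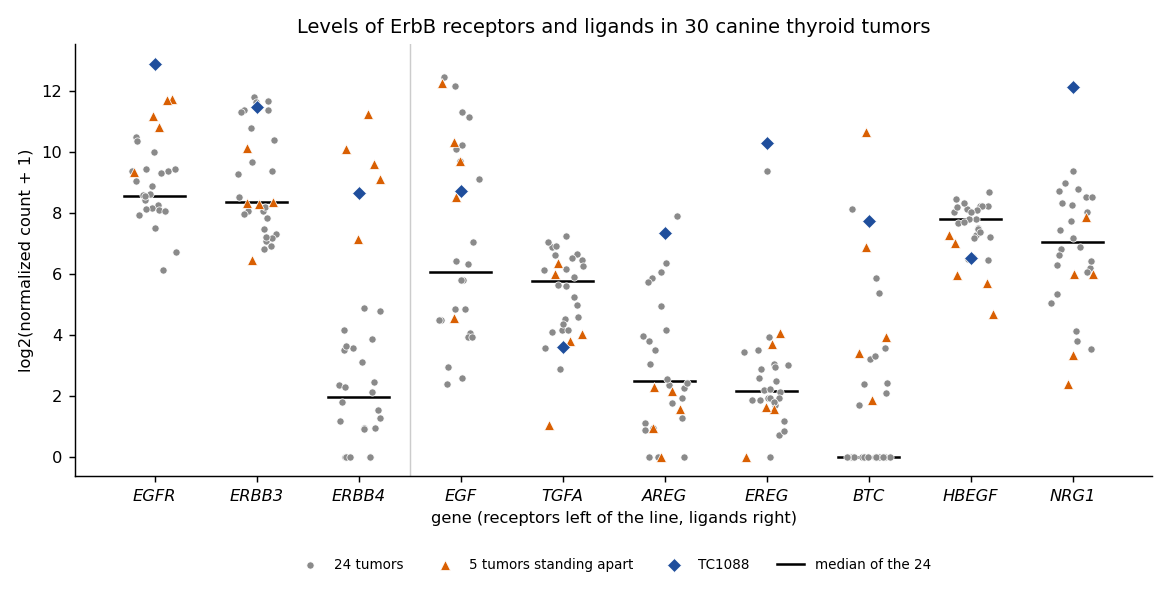
Level of each receptor and ligand gene (log2 of the normalized count plus 1, vertical axis) in 30 tumors, 1 point per tumor, with a bar at the median of the 24 tumors used in the fits, triangles for the 5 tumors standing apart and a diamond for TC1088. TC1088 holds the highest *EGFR*, *EREG* and *NRG1*, and *ERBB4* splits into 24 tumors at or below 4.87 and 6 at or above 7.12. The share of all genes that split the tumors this way was not counted.

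Of the ligands that bind EGFR alone, *EGF* had the widest spread. Its level ran from 2.38 in TC1994 (3 counts) to 12.46 in TC2089 (4608 counts), a range of 10.08 log2 units, and 99.7% of genes had a smaller SD over the 24 tumors. Of the 5 tumors apart, TC2289 was at 12.24, TC1473 at 10.31, TC1936 at 9.70, TC1020 at 8.50 and TC1601 at 4.54. TC1088 was in the middle, at 8.71. The tumors at the top of the 24 were TC2089, TC1241 (12.14), TC1953 (11.29) and TC1218 (11.14).

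*TGFA* ran from 2.86 in TC627 to 7.22 in TC2402 over the 24 tumors (median 5.75), with no tumor above 158 counts. TC1088 was low, at 3.58. Among the 5 apart, TC1936 had the lowest value of all, 1.04 from a single count, and TC1020 and TC1601 (6.36 and 5.97) were above the median of the 24. TC1473 was at 3.78 and TC2289 at 4.03.

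*AREG*, the gene of amphiregulin, reached 10 counts in 11 of 30 tumors. It was highest in TC627 at 7.88 (188 counts), next in TC1088 at 7.33 (160 counts) and then in TC2110 at 6.36 (93 counts). The 5 tumors apart held no more than 4 counts each, between 0 and 2.28 on the log2 scale, a range that also held 10 of the 24. TC627 thus combined the highest *AREG* with the lowest *EGFR* and *TGFA* of the 24 and with the second lowest *EGF* (2.58).

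*EREG*, the gene of epiregulin, was high in TC1088 (10.29, 1253 counts) and TC1241 (9.36, 655 counts). Every other tumor was at or below 4.04, with at most 18 counts, so these 2 stood far above the rest. In the 24 tumors *EREG* had 10 counts or more in 2 and did not pass the filter, so it has no row of its own in the fits. *AREG* and *EREG* are neighbours in the RefSeq annotation of the UU_Cfam_GSD_1.0 assembly, with 0 protein-coding genes between them, and *EPGN*, another EGFR ligand, lies directly on the other side of *EREG*. The genes did not peak together outside TC1088: in TC1241 *AREG* was at 5.86 and in TC627 *EREG* was at 1.17 from 1 count.

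*BTC* had no counts in 14 tumors, all of them among the 24. Counts of 0 allow levels up to 1.51 to 3.56 there, the highest limit being that of TC538, the library with the smallest size factor (0.279). It was highest in TC1473, one of the 5 apart (10.63, 1742 counts), followed by TC2089 (8.11, 224 counts), TC1088 (7.71, 209 counts) and TC1020 (6.86, 119 counts). The other 3 tumors apart had few counts, with levels of 1.84 in TC1601, 3.39 in TC1936 and 3.92 in TC2289.

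*HBEGF* was the most even of the 10, with an SD of 0.62 over the 24 tumors and a range of 6.44 (TC1593) to 8.69 (TC1241). Only 23.9% of genes had a smaller SD. The 3 lowest tumors of all 30 were TC2289 (4.66), TC1936 (5.69) and TC1020 (5.95), and TC1473 (7.00), TC1601 (7.26) and TC1088 (6.52) lay within the range of the 24.

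*NRG1*, the ERBB3 and ERBB4 ligand, was far highest in TC1088, at 12.11 from 4450 counts. The 24 tumors lay between 3.51 in TC2011 and 9.37 in TC2089, with a median of 7.02. TC1936 (2.39) and TC2289 (3.32) were the lowest of all, and TC1601 (5.97), TC1473 (5.99) and TC1020 (7.86) were inside the range of the 24. Of the further ligands, *NRG2* was highest in TC1936 (6.94), TC1020 (6.81) and TC1088 (6.47), with TC1241 next at 6.45. *NRG3* ran from 0 to 9.11 and was lower in TC1088 (2.00) than in most tumors. *EPGN* was low throughout, with at most 34 counts.

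**Figure D2:**
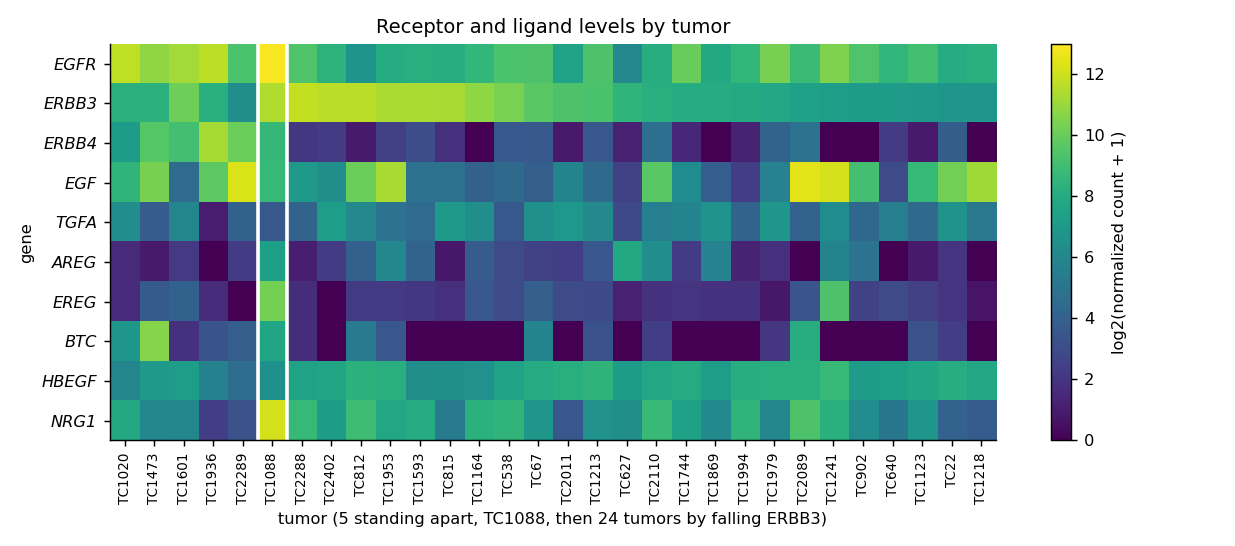
Level of the 10 genes (rows, color scale in log2 of the normalized count plus 1) in each tumor (columns): the 5 standing apart, TC1088, and the 24 others in order of falling *ERBB3*. *HBEGF* is nearly even across the columns, *ERBB4* is bright in the first 6, and *EREG* is bright in TC1088 and TC1241.

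Read by tumor, TC1088 ranked first of 25 (the 5 apart left out) in 4 of the 10 genes, *EGFR*, *ERBB4*, *EREG* and *NRG1*, and second in *AREG* and *BTC*. TC1088 ranked first for 8.91% of all genes that passed the filter, and first or second for 14.6%. It also ranked first for 10 of the 53 other pathway genes in the table. Among these were *SPRY1* (12.99) and *SPRY2* (10.90), feedback inhibitors of receptor signalling, *LRIG1* (13.59), whose product removes ErbB receptors from the surface, and *DUSP5* (8.69), *DUSP6* (13.92), *ETV4* (12.97) and *ETV5* (12.67), genes induced by ERK. For *DUSP6* the 24 tumors lay between 8.54 and 12.46, and for *SPRY1* between 6.96 and 10.64. Some other ERK-induced genes were low there: *FOS* (7.14) and *FOSL1* (3.45) ranked 24th of 25, *PHLDA1* (4.45) 23rd and *DUSP4* (9.17) 19th. The part of a different cell make-up in TC1088, where the thyrocyte markers were lowest, was not tested.

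Within the 24 tumors, 3 held 4 genes each among their 3 highest values. TC1241 was first in *EGFR*, *EREG* and *HBEGF* and second in *EGF*. TC2089 was first in *ERBB4*, *EGF*, *BTC* and *NRG1*. TC812 was second in *NRG1* and held rank 3 in *ERBB3*, *BTC* and *HBEGF*, with the second lowest *EGFR* (6.70). These ranks are a description and were not tested. How often these 3 tumors rank among the 3 highest over all genes was not counted, so the counts have no background beside them.

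To ask which genes changed with a receptor, each gene's counts were fitted over the 24 tumors with the receptor's log2 level as a continuous term (edgeR, quasi-likelihood test, Benjamini-Hochberg adjustment over all genes). The coefficient is the log2 change of a gene per log2 unit of the receptor. With *EGFR*, 35 of 18008 genes were called (0.194%), 34 rising and 1, *SLC25A30*, falling. This count rested on 1 tumor: without TC1241, a single gene of 17940 was called (0.00557%). Including TC1088 gave 408 calls (2.25%). The other members made up 0 of the 35 calls. Of the 8 tested, 1 had an unadjusted p below 0.05, *AREG*, with a coefficient of -0.63 ± 0.30 (SE, adjusted p = 0.703), and DESeq2 also called 0.

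The genes that ERK induces and the inhibitors of the receptors lay mostly above 0 against *EGFR*, without passing the test in the 24 tumors. Of 53 pathway genes in 6 lists (further ligands, proteases and their partners, adaptors, PI3K and AKT, inhibitors, ERK-induced genes), edgeR and DESeq2 each called 0, and 6 had an unadjusted edgeR p below 0.05, all with a positive coefficient. Over all genes, 6.94% had an unadjusted p below 0.05. The 6 were *DUSP6* (0.56 ± 0.14, adjusted p = 0.121), *SPRY1* (0.42 ± 0.14, adjusted p = 0.366), *DUSP5* (0.51 ± 0.17, adjusted p = 0.370), *EGR1* (0.64 ± 0.22, adjusted p = 0.433), *ETV4* (0.69 ± 0.30, adjusted p = 0.636) and *SPRY2* (0.47 ± 0.22, adjusted p = 0.691), each ± SE. The coefficient was positive for 10 of 11 ERK-induced genes, with a median of 0.28, and for 8 of 11 inhibitors, with a median of 0.13, beside a median of 0.01 over all genes. Without TC1241 the same medians were 0.32 and 0.12, and *DUSP6* was at 0.32 ± 0.15 (adjusted p = 0.716). In that setting 4 of the 53 pathway genes had an unadjusted edgeR p below 0.05, beside 1193 of all 17940 genes. The number of pathway genes below 0.05 thus also depended on TC1241. Over the 24 tumors, some cell type markers leaned the same way. Coefficients were positive for 7 of 7 fibroblast (median 0.25), 6 of 6 endothelial (0.18) and 6 of 6 macrophage markers (0.23). They were positive for 0 of 8 thyrocyte, 1 of 4 C-cell, 2 of 5 T-cell and 1 of 3 epithelial markers. The part of cell make-up in the pathway coefficients was not tested.

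With TC1088 included, 7 of the 53 pathway genes and 2 of 8 members were called by edgeR, all rising with *EGFR*, beside 2.04% of all genes that rose. They were *SPRY1* (0.67, adjusted p = 6.11e-06), *DUSP6* (0.72, adjusted p = 7.65e-06), *SPRY2*, *DUSP5*, *ETV5*, *ETV4* and *LRIG1*, and the members *ERBB4* (1.08, adjusted p = 0.000973) and *NRG1* (0.61, adjusted p = 0.0242). In the 24 tumors alone, *ERBB4* had a coefficient of 0.36 ± 0.44 and *NRG1* of 0.05 ± 0.29 (SE), so these calls rested on TC1088.

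**Figure D3:**
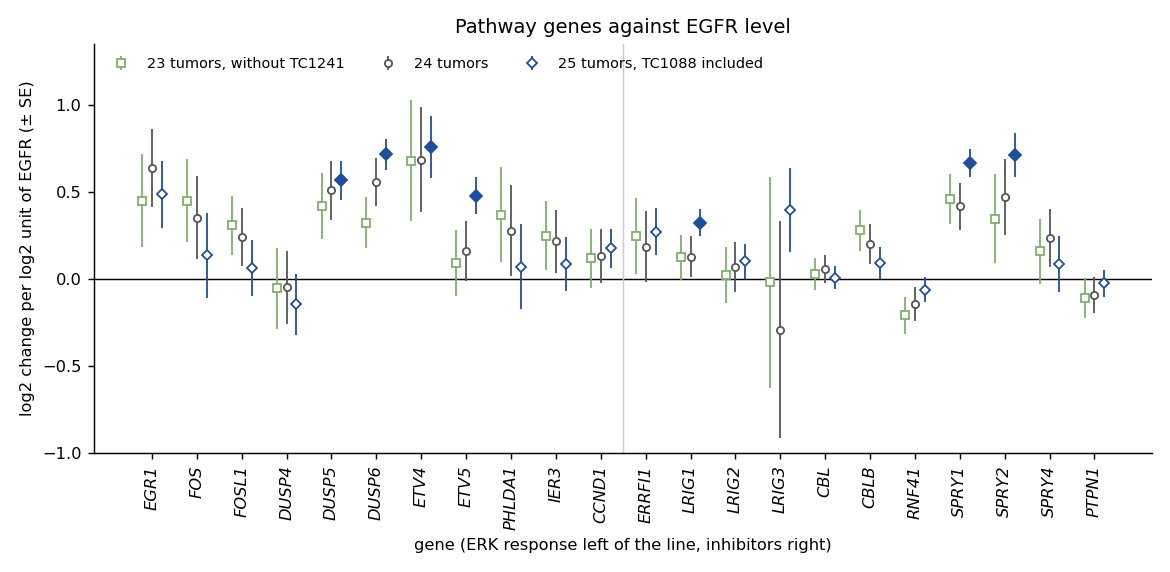
Log2 change per log2 unit of *EGFR* (vertical axis, points with SE bars, edgeR) for 11 ERK-induced genes and 11 inhibitors, in 24 tumors, without TC1241 and with TC1088. Filled points passed an adjusted p of 0.05, which only points with TC1088 did, and *DUSP6* falls from 0.56 to 0.32 without TC1241.

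With *ERBB3*, 11 of 18008 genes were called by edgeR (0.0611%), 5 rising and 6 falling. Without TC538 there were 5 calls, 4 rising and 1 falling, and without TC1241 there were 7, 4 rising and 3 falling. DESeq2's size factors in edgeR gave 3 rising and 1 falling, and DESeq2 itself called 391 genes (2.17%), 140 rising and 251 falling. The strongest was *SLC9A2*, a sodium-proton exchanger of epithelial cells (0.56 ± 0.08 SE, adjusted p = 0.00205), which also had the highest rank correlation with *ERBB3* of all genes with a symbol. *NECTIN4*, a cell adhesion gene, rose by 0.89 ± 0.16 (adjusted p = 0.0384), and *FFAR4*, *SH3BGRL2* and a gene without a symbol rose as well. None of the 8 members tested was called by edgeR, none had an unadjusted p below 0.05, and DESeq2 called 0. Of the 53 pathway genes, edgeR called 0, 4 had an unadjusted p below 0.05 and DESeq2 called 0. Over all genes, 10.5% had an unadjusted p below 0.05. The 4 were *ERRFI1*, an inhibitor of EGFR family kinases, at 0.27 ± 0.11, *LRIG1* at -0.18 ± 0.06, *SPRY4* at -0.24 ± 0.10 and *CCND1* at -0.22 ± 0.09 (SE, adjusted p between 0.192 and 0.400). The ERK-induced list had a positive coefficient in 1 of 11 genes, with a median of -0.13 beside 0.01 over all genes. With TC1088 included 4 of 11 were positive (median -0.12), without TC1241 3 of 11 (median -0.11), and over all 30 tumors 6 of 11 (median 0.04).

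With *ERBB4*, edgeR called 0 of 18008 genes (0.0%), with 1063 below an unadjusted p of 0.05 (5.9%), and DESeq2 called 22. Counts of at most 30 carried this receptor's level in the 24 tumors. The largest member coefficient was that of *BTC*, 1.07 ± 0.30 (SE, unadjusted p = 0.00123, adjusted p = 0.601). With TC1088 included, 262 genes were called (1.45%), and 1.33% rose, among them 3 of 8 members: *EGFR* (0.34, adjusted p = 0.0108), *BTC* (0.97, adjusted p = 0.0234) and *NRG1* (0.45, adjusted p = 0.00979).

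Relations between receptors and members were also examined as correlations over the 24 tumors, 34 in all with *ERBB2* as a further receptor. Of these, 3 had a Spearman p below 0.05, and 0 had an adjusted p below 0.05 in the edgeR fit over all genes. *ERBB4* and *BTC* gave rho = 0.55 (permutation p = 0.00545) and r = 0.53 (permutation p = 0.00674), and r = 0.39 (permutation p = 0.0724) without TC2089 and TC2110, the tumors farthest from the median of *ERBB4*. *ERBB3* and *NRG1* gave rho = 0.42 (permutation p = 0.0421) and r = 0.36 (permutation p = 0.0839), with r = 0.32 (permutation p = 0.151) without TC2288 and TC2402 and an edgeR adjusted p of 0.741. *ERBB2* and *TGFA* gave rho = 0.45 (permutation p = 0.0294) and r = 0.46 (permutation p = 0.0259), with r = 0.32 (permutation p = 0.150) without TC1869 and TC538 and an adjusted p of 0.0726. For *ERBB4* with *BTC* and *ERBB2* with *TGFA*, the p of r was no longer below 0.05 without the farthest 2 tumors. Leaving them out also narrows the range of the receptor, and rho was not recomputed without these 2 tumors. For *ERBB3* with *NRG1*, the p of r was above 0.05 with and without them.

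No correlation between the receptors passed its test over the 24 tumors. Spearman's rho was -0.22 for *EGFR* with *ERBB3* (permutation p = 0.304), 0.09 for *EGFR* with *ERBB4* (permutation p = 0.671) and 0.14 for *ERBB3* with *ERBB4* (permutation p = 0.519). *EGFR* and *ERBB2* gave rho = -0.38 (permutation p = 0.0681) and r = -0.35 (permutation p = 0.0937), with r = -0.27 without TC627 and TC1241 (permutation p = 0.223). With TC1088 included, their rho was -0.45 (permutation p = 0.0255). In the fit with *ERBB2*, 32.8% of all genes were called and 0 of 9 members, with 2 of the members, *BTC* and *TGFA*, below an unadjusted p of 0.05, beside 44.1% of all genes. The share of all genes called was 15.1% without TC538. *TGFA* was called by DESeq2 (0.74, adjusted p = 0.0295) and by edgeR without TC1241 (0.93, adjusted p = 0.0327), and *BTC* with DESeq2's size factors in edgeR (adjusted p = 0.0489). These calls stand beside 38.4%, 36.7% and 34.3% of all genes called in the same settings, in that order. With TC1088 included, edgeR called 4 of 9 members, beside 29.8% of all genes: *EGFR* fell with *ERBB2* (-0.91, adjusted p = 0.000808), as did *ERBB4* (-1.42, adjusted p = 0.00248) and *NRG1* (-1.07, adjusted p = 0.00355), while *TGFA* rose (0.79, adjusted p = 0.0274).

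**Figure D4:**
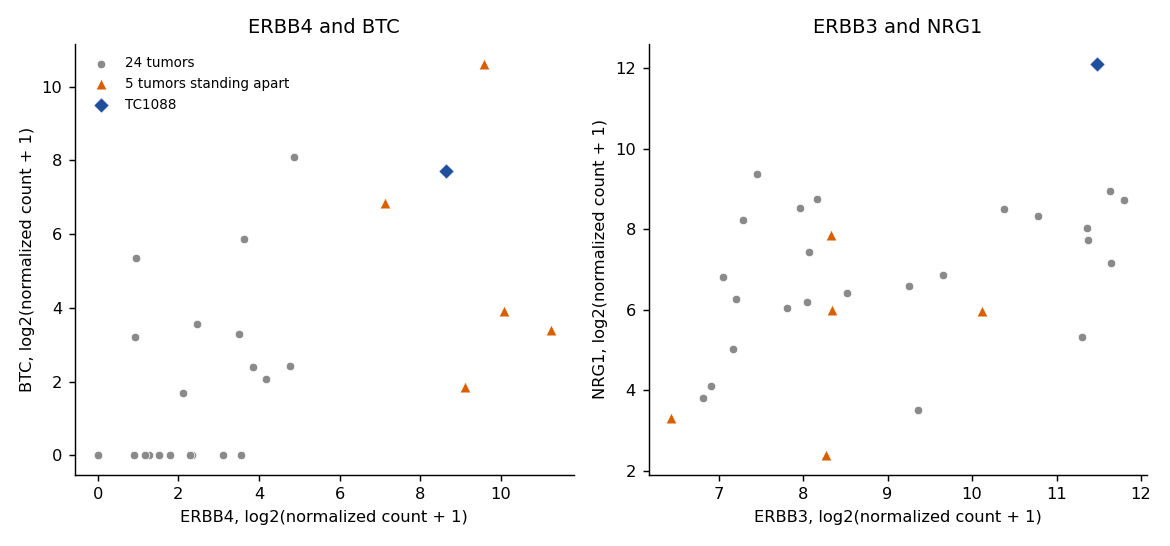
Left, *BTC* against *ERBB4*, and right, *NRG1* against *ERBB3*, each axis in log2 of the normalized count plus 1 and 1 point per tumor. Over the 24 tumors rho was 0.55 on the left, where 14 points lie at 0 counts of *BTC*, and 0.42 on the right, and TC1088 is high on both axes of each plot.

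Among the 7 ligands, 3 of 21 pairs had a Spearman p below 0.05. The farthest 2 tumors were here those farthest from the median of the gene named first in a pair. *BTC* and *HBEGF* gave rho = 0.53 (permutation p = 0.00825), r = 0.46 (permutation p = 0.0229) and r = 0.47 without the farthest 2 tumors (permutation p = 0.0262). In the edgeR fit with *HBEGF* as the term, *BTC* was called (adjusted p = 0.0496), one of 56 genes (0.311%), while with *BTC* as the term the adjusted p of *HBEGF* was 0.640. The call was lost when TC1088 was included, where the coefficient of *BTC* was -0.11 (adjusted p = 0.952). TC1088 had high *BTC* and low *HBEGF*. *EGF* and *HBEGF* gave rho = 0.45 (permutation p = 0.0270, edgeR adjusted p = 0.478 and 0.102 with either as the term), r = 0.46 (permutation p = 0.0243) and r = 0.34 without the farthest 2 (permutation p = 0.123). *TGFA* and *NRG1* ran in opposite directions, with rho = -0.46 (permutation p = 0.0245, edgeR adjusted p = 0.171 and 0.369), r = -0.38 (permutation p = 0.0697) and r = -0.42 without the farthest 2 (permutation p = 0.0498). The neighbouring genes *AREG* and *EREG* gave rho = 0.12 (permutation p = 0.577).

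More genes were called with *TGFA* than with any of the other ligands. Over the 24 tumors, edgeR called 4608 of 18008 genes (25.6%), 1887 rising and 2721 falling, against 0 for *AREG* (882 below an unadjusted p of 0.05), 18 for *BTC*, 28 for *NRG1*, 34 for *EGF*, 56 for *HBEGF* and 59 for *EREG*. Against the total counts of the libraries, *TGFA* gave rho = 0.46 (permutation p = 0.0243, not passing at an adjusted p of 0.348), r = 0.40 (permutation p = 0.0509) and r = 0.24 without the farthest 2 tumors (permutation p = 0.291). Against the share of the 10 most abundant genes, r was -0.40 (permutation p = 0.0519), -0.56 without the farthest 2 (permutation p = 0.00698), and rho was -0.36 (permutation p = 0.0809, adjusted p = 0.479). The farthest 2 tumors were here those farthest from the median of the total counts or of that share, not of *TGFA*. The part of depth in the *TGFA* count was not tested. Without TC538 the *TGFA* count was 1720 (9.58%), and the *HBEGF* count was 199. The *EREG* count was 0 without TC1241, with 487 below an unadjusted p of 0.05. Of the 53 pathway genes, 9 rose and 8 fell with *TGFA*, to be read beside the 25.6% of all genes. *EGR1* (0.74, adjusted p = 0.0119), *DUSP5* (0.57, adjusted p = 0.00650) and *ETV4* (0.79, adjusted p = 0.0168) rose with it, 3 of 11 ERK-induced genes. Including TC1088, *ETV4* was at -0.06 (adjusted p = 0.874) and *DUSP5* at 0.06 (adjusted p = 0.830). *SOS2* fell (-0.55, adjusted p = 0.00167), while *AKT1* (0.42, adjusted p = 0.0144) and *SHC1* (0.36, adjusted p = 0.00900) rose. These genes were chosen after their values were seen.

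Markers of other cells and measures of library depth were set beside each member, 143 relations with 15 below a Spearman p of 0.05 and a smallest Benjamini-Hochberg adjusted p of 0.0665. In all these relations the farthest 2 tumors were those farthest from the median of the marker mean or depth measure, not of the member. *ERBB3* was lower where the 6 endothelial markers were higher, with rho = -0.61 (permutation p = 0.00181, adjusted p = 0.0665), r = -0.56 (permutation p = 0.00507) and r = -0.68 without the farthest 2 tumors (permutation p = 0.000880). In the *ERBB3* fit all 6 endothelial genes had a negative coefficient, with a median of -0.31 beside 0.01 over all genes, and 5 had an unadjusted p below 0.05. The receptor genes *KDR* (-0.35 ± 0.08 SE, adjusted p = 0.0943) and *TEK* (-0.37 ± 0.09 SE, adjusted p = 0.0991) were not called by edgeR in the 24 tumors. Both were called with TC1088 included (adjusted p = 0.0434 and 0.0427) and by DESeq2 (adjusted p = 0.00655 and 0.0119). *ERBB3* was also higher with the epithelial markers, of which 3 of 5 listed could be used, with rho = 0.48 (permutation p = 0.0193, adjusted p = 0.344). Its r was 0.34 (permutation p = 0.100), and 0.19 without the farthest 2 tumors (permutation p = 0.420). The thyrocyte markers went the other way, with 0 of 8 positive coefficients in the *ERBB3* fit (median -0.195). Against their mean, rho was -0.25 (permutation p = 0.238) and r was -0.35 (permutation p = 0.0892). The part of the share of vessels or epithelium in the *ERBB3* level was not tested.

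*NRG1* was lower in the more deeply counted libraries, with rho = -0.67 against the total counts (permutation p = 0.000470, adjusted p = 0.0665), r = -0.64 (permutation p = 0.000590) and r = -0.73 without the farthest 2 tumors (permutation p = 0.000180). Its level is already scaled by the size factor, and the part of depth in it was not tested. *NRG1* was also lower with the endothelial markers, as *ERBB3* was, with rho = -0.44 (permutation p = 0.0319, adjusted p = 0.3805). Its r was -0.41 (permutation p = 0.0475), and -0.52 without the farthest 2 (permutation p = 0.0139). The part of these markers in the relation of *ERBB3* with *NRG1* was not tested. *EGF* was lower where the 10 most abundant genes took more of the counts, with rho = -0.61 (permutation p = 0.00186, adjusted p = 0.0665), r = -0.55 (permutation p = 0.00491) and -0.54 without the farthest 2 (permutation p = 0.00820). *AREG* was lower with the T-cell markers, with rho = -0.54 (permutation p = 0.00735, adjusted p = 0.210), r = -0.56 (permutation p = 0.00426) and r = -0.54 without the farthest 2 tumors (permutation p = 0.00963). *ERBB4* was higher with the skeletal muscle markers, with rho = 0.50 (permutation p = 0.0136, adjusted p = 0.277), r = 0.49 (permutation p = 0.0114) and r = 0.46 without the farthest 2 (permutation p = 0.0316). *BTC* was higher with them too, with rho = 0.42 (permutation p = 0.0434, adjusted p = 0.434). Its r was 0.45 (permutation p = 0.0283), and 0.33 without the farthest 2 (permutation p = 0.13). The part of muscle tissue in *ERBB4* and *BTC* was not tested.

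**Figure D5:**
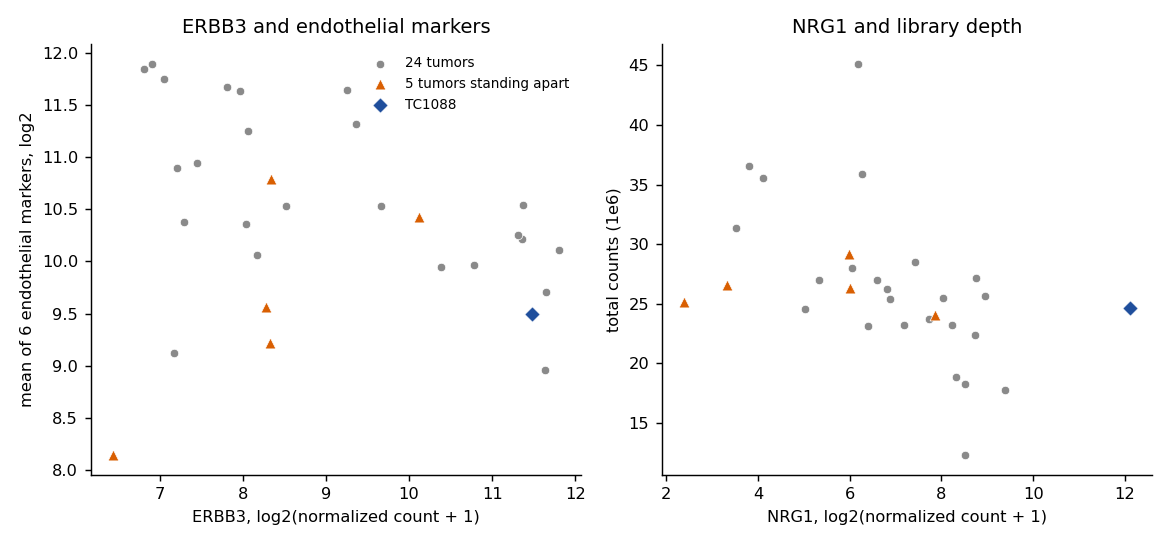
Left, mean log2 level of 6 endothelial markers against *ERBB3*, and right, total counts of the library against *NRG1*, each gene in log2 of the normalized count plus 1 and 1 point per tumor. Over the 24 tumors both fall, with rho of -0.61 and -0.67, while TC2289 is low on both axes on the left and TC1088 lies to the right of all other tumors on the right.

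The genes most like each receptor over the 24 tumors were taken as the 3 with the highest rho among genes with a symbol, as a description. For *EGFR* they were *STARD13* (rho = 0.72) and *COL4A3* and *COL4A4* (0.71 and 0.70), neighbouring collagen genes of basement membranes. *COL4A3* ranged from 5.48 to 11.95 over these tumors. For *ERBB3* they were *SLC9A2* (0.84), *CSTF2* (0.79), which acts in the 3′ end processing of mRNA, and *OR2C3* (0.76), an olfactory receptor gene with a median of only 1 count. For *ERBB4* they included *RAD51AP1* (0.67) and *CENPL* (0.66). Genes share library and depth, so these values are not independent of each other.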

How the data were processed

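Total RNA of 30 canine thyroid tumors (TRIzol extraction, RiboFree library kit) was sequenced as paired-end reads. Per the submitters' processing notes, the authors mapped reads to CanFam3.1 with STAR, and they deposited a table of raw counts per Ensembl gene and tumor, without normalization. Which strand column was taken is not given in the sources used here, so counts of overlapping or antisense genes are uncertain. The table held 0 columns of no tumor, and 0 pairs of tumors had identical counts.

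Levels used median-of-ratios size factors over 15611 genes and a pseudocount of 1. Fits used edgeR 4.0.16 in R 4.3.3 (TMM, quasi-likelihood) on genes that reached 10 counts in 5 or more of the tumors fitted, with the centred level of 1 receptor or ligand as the term. An adjusted p below 0.05 was called, and the SE is the coefficient's size divided by the square root of F. DESeq2 1.42.0 was an alternative. The edgeR fit was tested on simulated counts for the *ERBB3* comparison over 17812 genes, recovering 80 of 100 coefficients of 0.6 and 94 of 99 of 1.2, with 6 false calls. On the same counts DESeq2 recovered 85 of 100 and 96 of 99, with 39 false calls. Correlations had 100000 permutations (two-sided). Python 3.11.15, numpy 2.4.6, scipy 1.17.1, pandas 2.3.3 and matplotlib 3.10.9 were used.

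All members and *ERBB2*, at most 4 genes called per pathway list, and the 3 genes most like each receptor were named; others were chosen after their values were seen, as was the use of the ligands as terms and of TC1241 as a tumor left out. The members and lists were chosen with earlier results of these data known. Single libraries per tumor mean that p-values measure the spread between tumors. Results of some genes are not reported here.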

Additional observations from a re-analysis of the deposited data

How the results depend on the processing

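The same 5 tumors stood apart with a pseudocount of 8 and with average linkage. The median level of each of the 10 genes moved by less than 1 SD with TMM-scaled counts, a pseudocount of 8, without TC538 or without the 5 tumors. This SD is the spread between all 30 tumors, a wide yardstick for *ERBB4* (3.32) and *BTC* (2.98). The median of *BTC* went from 1.77 to 0 without the 5 tumors and to 3.38 with a pseudocount of 8. That pseudocount moved the median of *ERBB4* from 2.39 to 3.62 and that of *AREG* from 2.30 to 3.58. The numbers of genes called with a receptor depended on the setting. With TC1088 included they were 408 for *EGFR*, 88 for *ERBB3* and 262 for *ERBB4*, and over all 30 tumors 1906, 35 and 3364. DESeq2 called 151, 391 and 22, no count filter gave 96, 60 and 41, and the stricter filter gave 10 for *EGFR* and 1 for *ERBB3*. DESeq2's size factors in edgeR gave 4 for *ERBB3*, and a pseudocount of 8 gave 1 for *ERBB4*. Without TC538 the counts were 5 for *ERBB3* and 2703 for *ERBB2* (1762 rising and 941 falling, against 2489 and 3414). Without TC1241, a choice made after seeing the data, they were 1 for *EGFR* and 7 for *ERBB3*. For the ligands, TC1088 included gave 17 for *EGF*, 47 for *AREG*, 400 for *EREG*, 207 for *BTC*, 217 for *HBEGF* and 378 for *NRG1*. Without TC538 they were 199 for *HBEGF* and 1720 for *TGFA*, and without TC1241 they were 0 for *EREG* and 29 for *HBEGF*. Without TC538, 1 of 34 receptor relations had a Spearman p below 0.05, that of *ERBB4* with *BTC*.

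Coefficients that changed sign were *LRIG1* on *ERBB3* (0.0176 over all 30 tumors), *NRG1* on *EGFR* (-0.0153 without TC1241), *ERBB4* on *ERBB2* (-1.42 with TC1088 and -1.36 over all 30), *BTC* on *ERBB2* (-0.43 and -0.59), *ETV4* on *TGFA* (-0.0604 with TC1088) and *BTC* on *HBEGF* (-0.11 with TC1088). The cause of these changes was not tested. Low counts of *ERBB4*, *EREG*, *BTC* and *AREG* limit what could be detected. No paired analysis was possible because all tumors form 1 group.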

Other observations

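The genes most like each ligand over the 24 tumors are given as a description, chosen by the same rank correlation after the data were seen. *HBEGF* ran with *MCM2*, a DNA replication gene (rho = 0.80), *PTX3*, an inflammatory pattern recognition gene (0.80), and *PRR5L* (0.79). *NRG1* ran with *CYP7B1* (0.77) and *GSPT1* (0.76). *AREG* ran with *RTCB* (0.77), *TIGD6* (0.71) and *NRG3* (0.66), a further ERBB4 ligand. *EGF* ran with *TEAD1* and *FBH1* (0.74 each), and *BTC* with *TREH* and *LDB3* (0.75 each). *TGFA* ran with *PLOD3*, *GID8* and *EEF1D* (0.86, 0.86 and 0.85). For *NRG1*, these values stand beside its relation with library depth.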
